A study of Mus musculus with 8 samples.

Results

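The TNF superfamily ligands described here are 10 genes, Tnf, Lta, Ltb, Tnfsf8, Tnfsf9, Tnfsf10, Tnfsf11, Tnfsf14, Cd40lg and Fasl, taken by gene symbol from 55665 annotated mouse genes. Each had 1 entry in the deposited tables, and all 10 passed the filter on low counts, as did 16642 genes in the whole series. RNA was sequenced with a stranded protocol from cultured natural regulatory T (nTreg) cells, which are CD4+ T cells whose identity depends on the transcription factor Foxp3. The cells carried Cas9 from 1 Rosa26 allele and a green fluorescent reporter at Foxp3 (RosaCas9/+ Foxp3gfp) and were sorted as CD4+GFP+ from mouse spleen and lymph nodes. The 8 libraries formed 4 groups of 2. These were sgFoxp3 (a guide RNA against Foxp3) after 3 h of restimulation with antibodies to CD3 and CD28, sgNC (the control guide) after the same 3 h, sgFoxp3 at 0 h with mock treatment in DPBS, and sgNC at 0 h with mock treatment. All groups shared the Cas9 allele, the reporter and the culture. The age and sex of the animals, and whether cells were sorted again after receiving the guide, are not given in the sources used here. No label ties the 2 libraries of a group to separate cultures or animals. The p-values therefore reflect library-to-library spread alone, and that spread may be technical.

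Ligands of this superfamily are made mostly as membrane proteins that assemble into trimers, and some are released by proteases. They engage receptors of the TNF receptor superfamily, which recruit TRAF adaptors and activate NF-kappaB, or, where the receptor has a death domain, caspases. Activated T cells use them to instruct B cells, dendritic cells and stromal cells (CD40 ligand, lymphotoxins, LIGHT), to costimulate other T cells (the ligands of CD30 and of Tnfrsf9), to induce osteoclasts (RANK ligand) and to kill target cells (Fas ligand, TRAIL). Regulatory T cells are better known for the receptors of this family than for its ligands.

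The targeted gene and the cell type were checked first. Foxp3 stood at 30.7 and 27.9 TPM (RSEM's transcript level, scaled for transcript length and library size) in Foxp3-guide cells at 3 h, against 337 and 329.8 TPM in control-guide cells at 3 h. At 0 h it stood at 44.0 and 44.4 TPM in Foxp3-guide cells, against 486 and 501 TPM in control-guide cells. The T cell genes Cd3e, Cd4 and Trac averaged at least 164.9, 70.1 and 545.3 TPM in all 4 groups. Il2ra, also checked, differed between the guides at both times, and Ikzf2 at 0 h. Il2ra averaged 835.1 TPM in Foxp3-guide against 1765 TPM in control-guide cells at 3 h, and 101.3 against 599.4 TPM at 0 h. Ikzf2 averaged 68.1 against 75.4 TPM at 3 h and 71.5 against 151.8 TPM at 0 h, in the same order of guides. In the edgeR test on counts described below, the log2 guide effect of Ikzf2 at 3 h was 0.09 (adjusted p = 0.06). It did not pass there and had the opposite sign to the TPM means. Library totals were 55865290 and 94807362 expected counts (sgFoxp3, 3 h), 48626432 and 45518491 (sgNC, 3 h), 66804803 and 64135431 (sgFoxp3, 0 h) and 38729009 and 42698042 (sgNC, 0 h). In such bulk samples, fewer cells expressing a gene and less RNA per cell cannot be told apart.

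Promoter sequences were available from RefSeq (GRCm38.p6, 300 bases from 250 before to 50 after the start) for 8 of the 10 genes. The 5 shown are the neighbouring genes Tnf, Lta and Ltb, which responded differently, and Tnfsf8 and Tnfsf14, which had the largest guide effects at 3 h and at 0 h. Capitals mark the NFAT core GGAAA, read on either strand (TTTCC on the printed strand), and the AP-1 element TGANTCA, in which N was C or G.
Tnf (chr17:35201958-35202257, minus strand): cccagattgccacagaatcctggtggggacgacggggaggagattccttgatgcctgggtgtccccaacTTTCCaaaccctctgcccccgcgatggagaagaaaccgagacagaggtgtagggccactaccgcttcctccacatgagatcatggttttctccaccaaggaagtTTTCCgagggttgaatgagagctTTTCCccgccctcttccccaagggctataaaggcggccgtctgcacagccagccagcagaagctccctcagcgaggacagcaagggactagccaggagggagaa
Lta (chr17:35205302-35205601, minus strand): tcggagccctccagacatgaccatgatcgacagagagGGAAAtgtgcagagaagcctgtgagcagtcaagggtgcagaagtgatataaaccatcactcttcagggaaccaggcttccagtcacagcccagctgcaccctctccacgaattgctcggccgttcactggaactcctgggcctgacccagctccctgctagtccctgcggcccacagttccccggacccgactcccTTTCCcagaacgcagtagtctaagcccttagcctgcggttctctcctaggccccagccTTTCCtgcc
Ltb (chr17:35194257-35194556, plus strand): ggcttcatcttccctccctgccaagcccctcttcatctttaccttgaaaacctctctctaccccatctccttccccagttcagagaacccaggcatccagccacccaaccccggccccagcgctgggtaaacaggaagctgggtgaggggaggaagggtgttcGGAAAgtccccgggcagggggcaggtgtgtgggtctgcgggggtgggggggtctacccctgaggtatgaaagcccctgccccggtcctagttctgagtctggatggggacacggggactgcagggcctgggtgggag
Tnfsf8 (chr4:63861235-63861534, minus strand): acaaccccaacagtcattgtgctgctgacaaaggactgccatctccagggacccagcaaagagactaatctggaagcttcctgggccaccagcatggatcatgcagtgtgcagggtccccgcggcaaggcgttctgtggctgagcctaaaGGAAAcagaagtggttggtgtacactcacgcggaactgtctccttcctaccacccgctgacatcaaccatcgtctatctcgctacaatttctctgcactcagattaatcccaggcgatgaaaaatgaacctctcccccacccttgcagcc
Tnfsf14 (chr17:57194132-57194431, minus strand): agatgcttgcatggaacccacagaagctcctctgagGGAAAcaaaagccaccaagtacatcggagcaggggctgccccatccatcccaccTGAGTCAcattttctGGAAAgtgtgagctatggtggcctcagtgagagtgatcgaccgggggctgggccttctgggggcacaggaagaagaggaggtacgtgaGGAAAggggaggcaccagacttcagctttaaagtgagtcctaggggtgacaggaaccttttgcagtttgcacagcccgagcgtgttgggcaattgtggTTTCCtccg

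The Tnfsf14 window held 4 matches to the NFAT core and 1 to AP-1, and the Tnf and Lta windows held 3 matches to the NFAT core each. Ltb and Tnfsf8 held 1 match each, as did Tnfsf10 and Tnfsf11, and Fasl held 2. Among 32851 RefSeq promoters of the same length, 61.3% held at least 1 NFAT core match, 9.42% at least 3 and 2.65% at least 4. AP-1 was matched in 5.2% of promoters. The forkhead element, TGTTTAC or TGTTTGC on either strand, was matched in 8.48% of promoters and in 1 of the 8 windows, that of Ltb. The NF-kappaB consensus was matched in 4.51% of promoters and likewise only in Ltb among the 8, where the match overlaps the NFAT core shown. A match is a description of letters in this window and does not show a bound site.

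The composition of the ligand transcripts differed between the groups before any single gene is considered. The 10 ligands summed to 5289 and 5212 TPM in Foxp3-guide cells at 3 h, against 2931 and 2949 TPM in control-guide cells at 3 h. At 0 h they summed to 467 and 458 TPM in Foxp3-guide cells, against 749.7 and 769.5 TPM in control-guide cells. On the TPM scale the sum was thus lower in Foxp3-guide than in control-guide cells when resting and higher after stimulation, with no overlap between the libraries. The resting sum chiefly reflects Ltb, at a mean of 343.8 against 615.1 TPM, while Tnfsf14, Cd40lg and Fasl were higher with the Foxp3 guide. At 0 h Ltb alone made up 75.0% and 73.6% of the sum in Foxp3-guide cells and 81.0% in both libraries in control-guide cells. After 3 h its share was 4.84% and 4.87% with the Foxp3 guide, against 19.7% and 20.3% with the control guide. Tnf took 24.6% and 24.8% with the Foxp3 guide at 3 h and 23.2% and 23.4% with the control guide. The share of Tnfsf8, in contrast, was 20.3% and 19.5% with the Foxp3 guide at 3 h and 6.02% and 5.54% with the control guide.

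**Figure D1:**
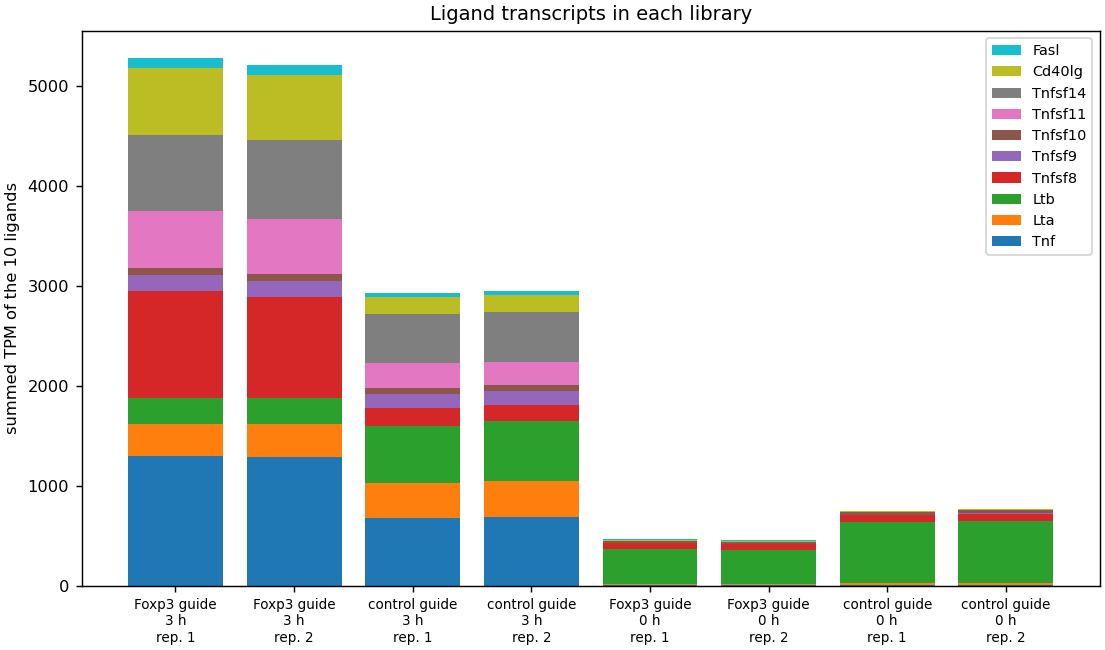
Summed TPM of the 10 ligands, stacked by gene, in each of the 8 libraries (rep., replicate). The bars of Foxp3-guide cells at 3 h reach 5289 and 5212 TPM, and Ltb (green) fills most of each 0 h bar.

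Ranked by mean TPM, Tnf, Tnfsf8, Tnfsf14 and Cd40lg led in Foxp3-guide cells at 3 h, and no gene's libraries overlapped those of its neighbour in that order. In control-guide cells at 3 h the order was led by Tnf, Ltb, Tnfsf14 and Lta, and only the neighbours Tnfsf8 and Cd40lg overlapped. At 0 h Ltb and Tnfsf8 led with either guide. Tnf was the lowest of the 10 at 0 h in Foxp3-guide cells, while Tnfsf14 was the lowest in control-guide cells. Low neighbours overlapped at 0 h: Tnfsf10 with Lta, Fasl with Cd40lg and Tnfsf11 with Tnfsf14 in Foxp3-guide cells, and Tnf with Tnfsf9, Tnfsf9 with Cd40lg, and Cd40lg with Tnfsf11 in control-guide cells.

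**Figure D2:**
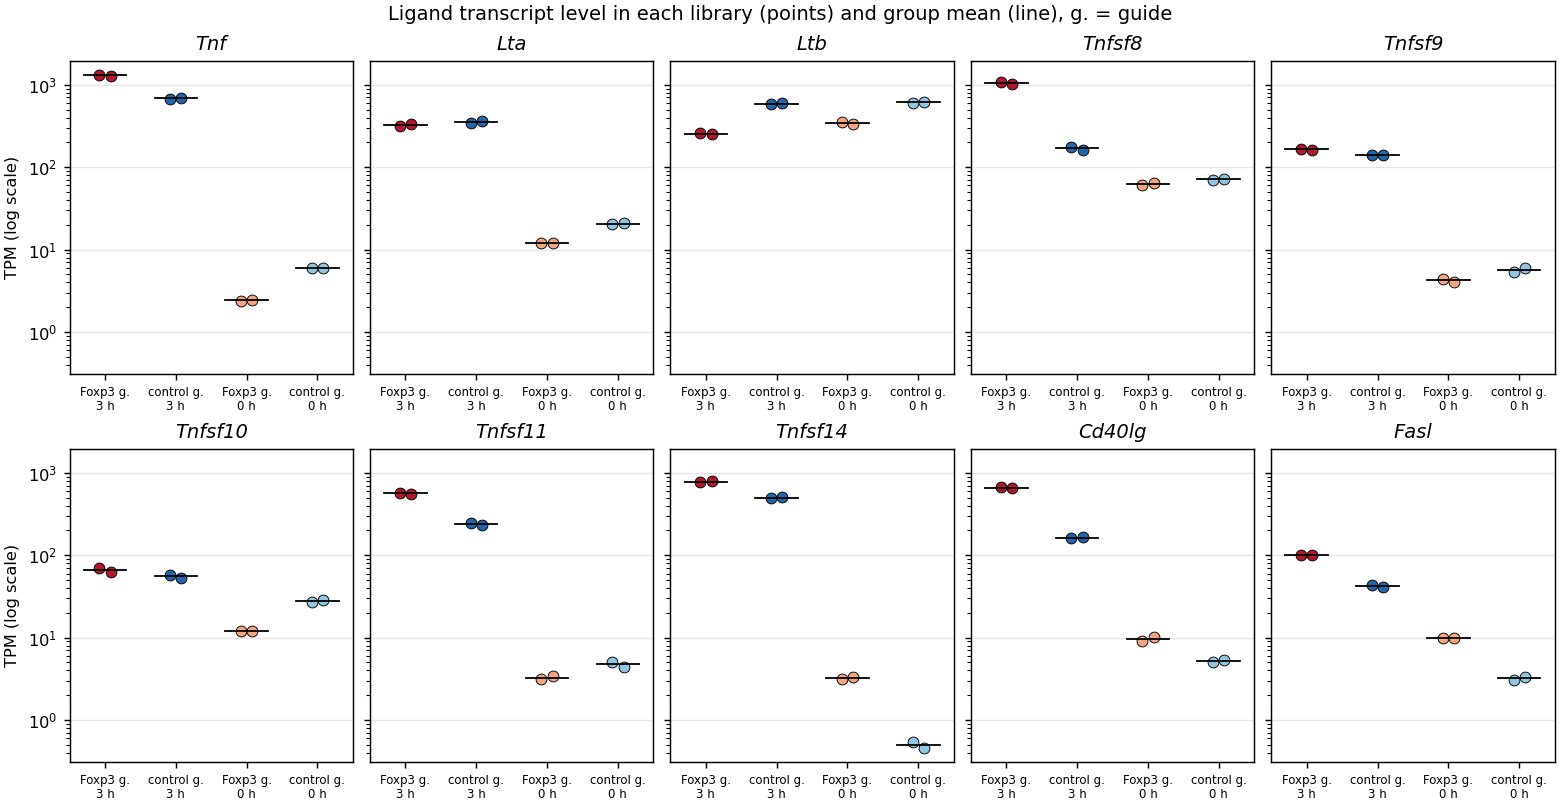
TPM of each ligand on a log axis, 1 panel per gene; points are libraries, lines are the means of 2, and groups run from Foxp3 guide 3 h to control guide 0 h. In every panel but that of Ltb both 3 h groups lie above both 0 h groups.

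Changes were tested with edgeR's quasi-likelihood model on expected counts, fitted to all 16642 genes and all 8 libraries, and called at a Benjamini-Hochberg adjusted p below 0.05. Log2 changes are given with their standard error (SE). At 0 h, 3 ligands were higher and 5 lower in Foxp3-guide than in control-guide cells, and 2 did not pass. Across all genes 34.2% were called higher and 29.1% lower there, 63.3% in all, so the number of ligands called at 0 h was near the background. At 3 h, 8 ligands were higher, 1 was lower and 1 did not pass, where 30.7% of all genes were called higher and 30.8% lower (61.5% in all). The median log2 guide effect of the ligands was -0.21 at 0 h and 0.98 at 3 h, beside 0.023 and -0.009 over all genes tested. TCR stimulation was called higher for 9 ligands and lower for 1 in Foxp3-guide cells (all genes: 40.8% higher, 44.5% lower, 85.4% in all) and higher for all 10 in control-guide cells (40.9% higher, 40.9% lower, 81.8% in all). The median log2 TCR effect of the ligands was 5.32 in Foxp3-guide cells and 4.74 in control-guide cells, beside -0.068 and -0.010 over all genes. On the log2(TPM+1) scale the median over all genes moved to -0.118 (guide effect at 3 h), -0.152 (guide effect at 0 h), -0.177 (TCR effect, Foxp3 guide) and -0.197 (TCR effect, control guide). The share of calls that were higher moved with it, to 27.4% beside 49.9% at 3 h, 27.9% beside 54% at 0 h and 37.3% beside 50% for the TCR effect with the control guide. The difference between the TCR effects, tested as an interaction, was called for all 10, positive for 7 and negative for 3, where 17.8% of all genes were called positive and 27% negative (44.8% in all). For that difference 39.7% of calls over all genes were positive, and 51.5% on the log2(TPM+1) scale.

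**Figure D3:**
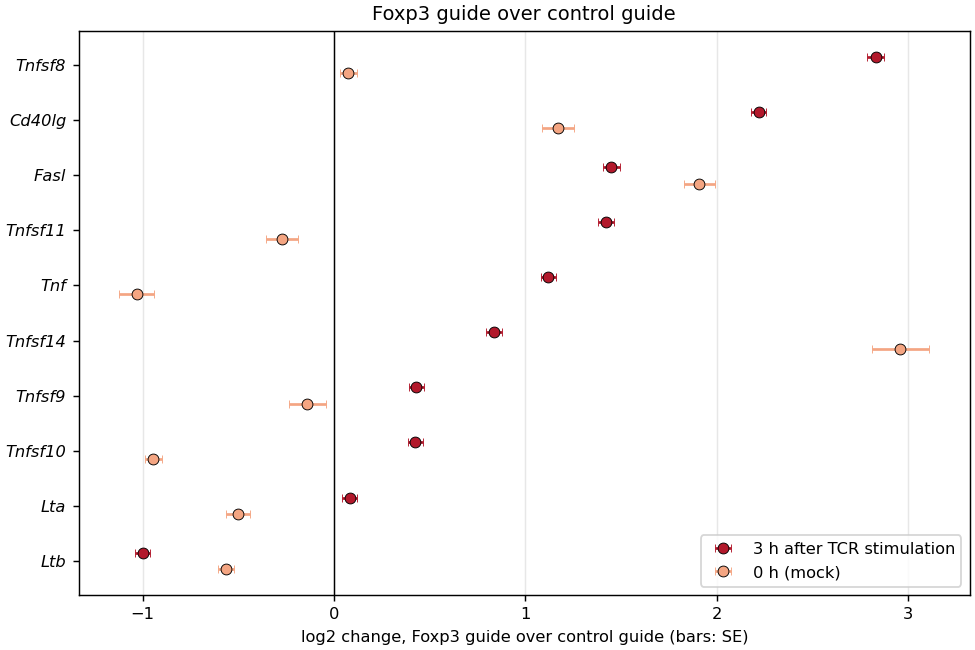
Log2 change of each ligand between Foxp3-guide and control-guide cells at 3 h (dark red) and 0 h (orange); bars are SE and genes are ordered by the effect at 3 h. Tnfsf8 (2.83) and Cd40lg (2.22) lead at 3 h, Tnfsf14 (2.96) leads at 0 h, and Ltb is lower at both times.

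Tnf, Lta and Ltb lie side by side on chromosome 17 and did not respond alike. Tnf (ENSMUSG00000024401.14; GRCm38 chromosome 17, 35199381 to 35202007, minus strand), the inflammatory cytokine that signals through both TNF receptors, was higher in Foxp3-guide than in control-guide cells at 3 h and lower at 0 h. It stood at 1301 and 1291 TPM in Foxp3-guide cells at 3 h, against 679 and 689.6 TPM in control-guide cells at 3 h. Mock-treated (0 h), it stood at 2.38 and 2.46 TPM in Foxp3-guide cells, against 5.91 and 6.05 TPM in control-guide cells. The 2 guides therefore did not overlap at either time, with Foxp3-guide cells above at 3 h and below at 0 h. The log2 guide effect was 1.12 (SE 0.04; edgeR adjusted p = 1.4e-17) at 3 h and -1.03 (SE 0.091; adjusted p = 4.7e-10) at 0 h. The transcript rose 659-fold over 3 h of stimulation in Foxp3-guide cells (log2 9.36, SE 0.064) and 148-fold in control-guide cells (log2 7.21, SE 0.06). That TCR effect was thus larger by 2.16 (SE 0.1; adjusted p = 1e-14) with the Foxp3 guide.

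Lta (ENSMUSG00000024402.5; chromosome 17, 35203165 to 35205351, minus strand) encodes lymphotoxin alpha, which is secreted as a trimer of its own or held at the membrane by lymphotoxin beta. Its levels were 319 and 329 TPM in Foxp3-guide cells at 3 h, against 346 and 359 TPM in control-guide cells at 3 h. At 0 h they were 11.89 and 12.01 TPM in Foxp3-guide cells, against 20.2 and 20.8 TPM in control-guide cells. The guides were apart at 0 h, and at 3 h the Foxp3-guide libraries lay slightly below the control-guide libraries in TPM. Lta was lower with the Foxp3 guide at 0 h (log2 change -0.50, SE 0.063; edgeR adjusted p = 2e-07), and the effect on the log2(TPM+0.1) scale was -0.77. At 3 h its guide effect of 0.08 (SE 0.04; adjusted p = 0.076; 95% interval 0.00 to 0.16) did not pass, and it was -0.12 (adjusted p = 0.036) on the log2(TPM+1) scale. Lta rose with stimulation by 5.06 (SE 0.052) in Foxp3-guide cells and by 4.48 (SE 0.052) in control-guide cells, a difference of 0.58 (SE 0.075; adjusted p = 5.8e-07).

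Ltb (ENSMUSG00000024399.5; chromosome 17, 35194439 to 35196320, plus strand) encodes lymphotoxin beta, the membrane partner of lymphotoxin alpha in the ligand of the lymphotoxin beta receptor, which organises lymphoid tissue. In the edgeR fit it was called lower with the Foxp3 guide at both times. Ltb stood at 256.2 and 253.9 TPM in Foxp3-guide cells at 3 h, against 577 and 600.0 TPM in control-guide cells at 3 h. In resting cells (0 h) it stood at 350.4 and 337 TPM in Foxp3-guide cells, against 607 and 623 TPM in control-guide cells. The guides were apart at both times, and on the TPM scale the 3 h libraries lay below the 0 h libraries with either guide, more clearly so with the Foxp3 guide. The log2 guide effect was -1.0 (SE 0.041; adjusted p = 2.4e-16, edgeR) at 3 h and -0.56 (SE 0.041; adjusted p = 1.5e-11) at 0 h. The size of the change in Ltb with stimulation depended on the scale. It was -0.13 (SE 0.041; adjusted p = 0.0055) with the Foxp3 guide, a call lost under RLE scaling (-0.08; adjusted p = 0.072), while on both TPM scales it was larger, at -0.43, and passed. It was 0.31 (SE 0.041; adjusted p = 2e-07) with the control guide, which was -0.06 (adjusted p = 0.13) on the log2(TPM+1) scale. The call with the Foxp3 guide was also lost in DESeq2 (adjusted p = 0.074) and without Foxp3 guide 0 h replicate 1, 3 h replicate 1 or 3 h replicate 2 (adjusted p = 0.056, 0.063 and 0.06). The difference between the TCR effects, -0.44 (SE 0.058; adjusted p = 9.4e-07), kept its call under the other scalings, filters, tools and left-out libraries, with values of -0.49 to -0.37, but not when a change of at least 2-fold was asked for.

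The ratio of the lymphotoxin chains followed from these changes. The TPM of Lta over that of Ltb was 1.25 and 1.3 in Foxp3-guide cells at 3 h, against 0.6 and 0.599 in control-guide cells at 3 h. At 0 h it was 0.0339 and 0.0356 in Foxp3-guide cells, against 0.0332 and 0.0334 in control-guide cells. Ltb transcript therefore exceeded Lta in 3 of the 4 groups, and the order was turned round only in stimulated Foxp3-guide cells. The TPM of Tnf over that of Lta was 4.08 and 3.92 in Foxp3-guide cells at 3 h, against 1.96 and 1.92 in control-guide cells at 3 h, and 0.2 and 0.205 against 0.293 and 0.29 at 0 h.

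Genes around this cluster were read as a local comparison. Tnf lies 1157 bases from Lta and 3060 bases from Ltb. On the far side of Lta, Nfkbil1, at 14823 bases, changed with the guide by 0.35 at 3 h (called) and by -0.00 at 0 h (not passed), and stimulation changed it by -0.66 (Foxp3 guide) and -1.02 (control guide). On the far side of Ltb, Lst1, at 5999 bases, had guide effects of 0.39 at 3 h (not passed) and 0.66 at 0 h (called). Neither neighbour showed the sign change of Tnf between the times, although the difference between neighbours was not tested.

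**Figure D4:**
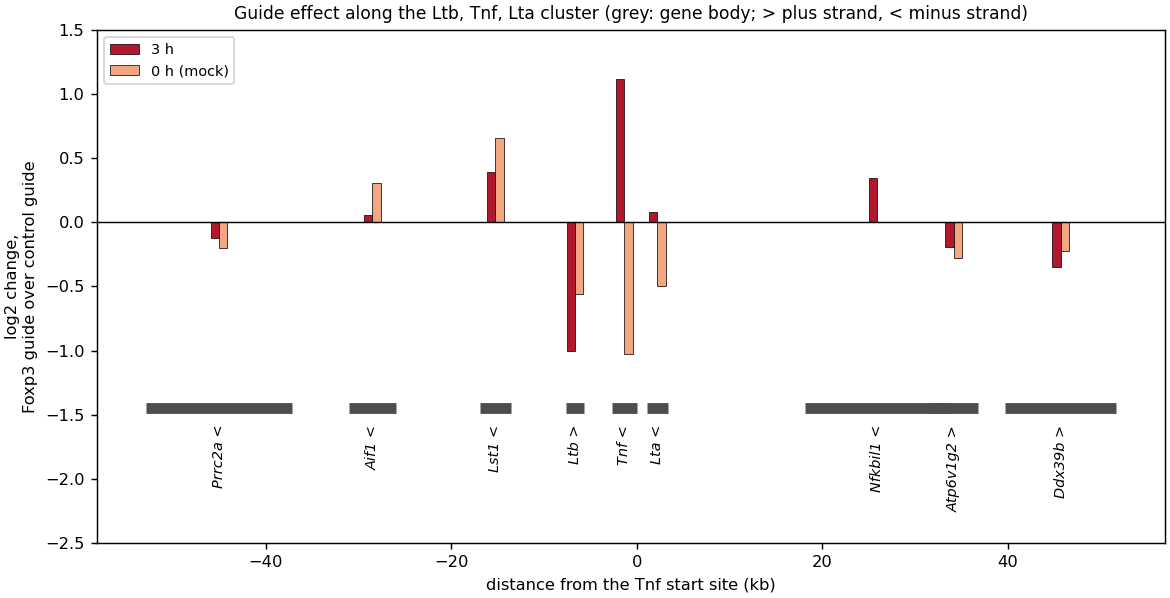
Log2 guide effect of tested protein-coding genes around Tnf (1 numbered gene model left out), at 3 h (dark red) and 0 h (orange), placed by distance from the Tnf start; grey blocks below are gene bodies. Tnf has 1.12 at 3 h and -1.03 at 0 h, beside -1.0 and -0.56 for Ltb.

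Outside the Tnf cluster and the death ligands, Tnfsf8, Cd40lg, Tnfsf11, Tnfsf14 and Tnfsf9 were higher in Foxp3-guide cells at 3 h, by log2 changes of 0.43 to 2.83. Tnfsf8 (ENSMUSG00000028362.2; chromosome 4, 63831308 to 63861347, minus strand) encodes the ligand of CD30, a receptor of activated lymphocytes. It stood at 1073 and 1018 TPM in Foxp3-guide cells at 3 h, against 176 and 163 TPM in control-guide cells at 3 h. Mock-treated (0 h), it stood at 60.6 and 63.7 TPM in Foxp3-guide cells, against 70.4 and 71.5 TPM in control-guide cells. The Foxp3-guide libraries at 3 h were far above all others. Its guide effect of 2.83 (SE 0.045; edgeR adjusted p = 6.9e-24) was the largest of the 10 at 3 h. At 0 h the effect of 0.08 (SE 0.044; adjusted p = 0.14; 95% interval -0.01 to 0.17) did not pass and turned to -0.01 under upper-quartile scaling and to -0.19 (adjusted p = 0.0093) on the log2(TPM+1) scale. Stimulation raised Tnfsf8 20.8-fold (log2 4.38, SE 0.048) in Foxp3-guide cells and 3.08-fold (log2 1.62, SE 0.044) in control-guide cells. The difference of 2.75 (SE 0.062; adjusted p = 5.3e-20) was the largest among the ligands.

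Cd40lg (ENSMUSG00000031132.1; chromosome X, 57212143 to 57224042, plus strand) encodes CD40 ligand, through which helper T cells license B cells and dendritic cells. It stood at 672 and 652 TPM in Foxp3-guide cells at 3 h, against 163 and 164 TPM in control-guide cells at 3 h. In resting cells (0 h) it stood at 9.19 and 10.1 TPM in Foxp3-guide cells, against 5.07 and 5.29 TPM in control-guide cells. Foxp3-guide cells were higher at both times, and more so after stimulation. The log2 guide effect was 2.22 (SE 0.039; adjusted p = 3.7e-23 in edgeR) at 3 h and 1.17 (SE 0.084; adjusted p = 1e-11) at 0 h. The TCR effect was 6.40 (SE 0.052) in Foxp3-guide cells and 5.36 (SE 0.062) in control-guide cells, apart by 1.04 (SE 0.099; adjusted p = 5.2e-09). Its neighbour Arhgef6, at 7442 bases, had guide effects of 1.11 at 3 h and 0.25 at 0 h, both called, and stimulation changed it by -1.23 (Foxp3 guide) and -2.09 (control guide).

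Tnfsf11 (ENSMUSG00000022015.8; chromosome 14, 78277445 to 78308043, minus strand) encodes RANK ligand, which drives osteoclast formation and supports dendritic cells. Its level was 568 and 555 TPM in Foxp3-guide cells at 3 h, against 248 and 235 TPM in control-guide cells at 3 h. At 0 h it was 3.13 and 3.44 TPM in Foxp3-guide cells, against 5.1 and 4.47 TPM in control-guide cells. Like Tnf, it stood lower with the Foxp3 guide at rest and higher after stimulation. The guide effect was 1.42 (SE 0.042; edgeR adjusted p = 3.7e-19) at 3 h. Mock-treated (0 h), it was -0.27 (SE 0.085; adjusted p = 0.0072), a call lost without control guide 0 h replicate 1 (-0.17; adjusted p = 0.19) and without Foxp3 guide 0 h replicate 1 (-0.19; adjusted p = 0.11), and it was -0.53 on the log2(TPM+0.1) scale. Stimulation raised Tnfsf11 by 7.72 (SE 0.061) in Foxp3-guide cells and by 6.03 (SE 0.061) in control-guide cells, a difference of 1.69 (SE 0.095; adjusted p = 4.2e-13).

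Tnfsf14 (ENSMUSG00000005824.7; chromosome 17, 57189492 to 57194177, minus strand) encodes LIGHT, which binds the lymphotoxin beta receptor and Tnfrsf14 (HVEM). Its level was 764 and 785 TPM in Foxp3-guide cells at 3 h, against 499 and 502 TPM in control-guide cells at 3 h. In resting cells (0 h) it was 3.11 and 3.38 TPM (251 and 261 counts) in Foxp3-guide cells, against 0.55 and 0.46 TPM (23 and 21 counts) in control-guide cells. The gene was thus nearly silent in resting control-guide cells and had a low level in resting Foxp3-guide cells. The guide effect was 0.84 (SE 0.042; edgeR adjusted p = 1.1e-14) at 3 h and 2.96 (SE 0.15; adjusted p = 2.2e-14) at 0 h, which at 0 h was 1.5 on the log2(TPM+1) scale, where 1 TPM is added to levels of this size. Stimulation raised it 294-fold (log2 8.20, SE 0.063) in Foxp3-guide cells and 1280-fold (log2 10.32, SE 0.085) in control-guide cells. Of the 10 ligands Tnfsf14 thus had the largest rise with the control guide, and its TCR effect was smaller with the Foxp3 guide, with a difference of -2.12 (SE 0.17; adjusted p = 2.9e-10), or -0.87 on the log2(TPM+1) scale.

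Tnfsf9 (ENSMUSG00000035678.8; chromosome 17, 57105325 to 57107757, plus strand) encodes the ligand of the costimulatory receptor Tnfrsf9. It stood at 166 and 163 TPM in Foxp3-guide cells at 3 h, against 140.4 and 140.3 TPM in control-guide cells at 3 h. At 0 h it stood at 4.41 and 4.1 TPM in Foxp3-guide cells, against 5.28 and 6.05 TPM in control-guide cells. The guides were apart by little at either time. The effect at 3 h was 0.43 (SE 0.041; edgeR adjusted p = 1.6e-09), or 0.23 on the log2(TPM+1) scale. At 0 h the effect of -0.14 (SE 0.097; adjusted p = 0.24; 95% interval -0.34 to 0.06) did not pass, and it was -0.34 (adjusted p = 0.0019) on the log2(TPM+1) scale. Stimulation raised Tnfsf9 by 5.57 (SE 0.059) in Foxp3-guide cells and by 5.0 (SE 0.063) in control-guide cells, a difference of 0.57 (SE 0.11; adjusted p = 9.1e-05).

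The death ligands went opposite ways at rest. Fasl (ENSMUSG00000000817.10; chromosome 1, 161780689 to 161788495, minus strand), which kills cells bearing Fas, stood at 100.4 and 101 TPM in Foxp3-guide cells at 3 h, against 43.8 and 41.2 TPM in control-guide cells at 3 h. Mock-treated (0 h), it stood at 9.94 and 10.03 TPM in Foxp3-guide cells, against 3.06 and 3.35 TPM in control-guide cells. Foxp3-guide cells were higher at both times. The guide effect was 1.45 (SE 0.044; edgeR adjusted p = 4.7e-19) at 3 h and 1.91 (SE 0.079; adjusted p = 1.9e-16) at 0 h. Stimulation raised Fasl 12.4-fold in Foxp3-guide cells (log2 3.64, SE 0.049) and 17.1-fold in control-guide cells (log2 4.10, SE 0.068). That difference of -0.46 (SE 0.094; adjusted p = 2.9e-04) was -0.16 (adjusted p = 0.16) on the log2(TPM+1) scale and was lost there.

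Tnfsf10 (ENSMUSG00000039304.11; chromosome 3, 27317028 to 27342427, plus strand) encodes TRAIL, which in mouse kills through Tnfrsf10b. Its level was 69.2 and 62.7 TPM in Foxp3-guide cells at 3 h, against 58.3 and 53.2 TPM in control-guide cells at 3 h. In resting cells (0 h) it was 12 and 11.9 TPM in Foxp3-guide cells, against 27.1 and 28.5 TPM in control-guide cells. As for Tnf and Tnfsf11, the order of the guides was turned round by stimulation, with the effect called at both times. In TPM the order also turned round for Tnfsf8 and Tnfsf9, whose guide effects at 0 h did not pass in the edgeR fit. The guide effect was 0.43 (SE 0.04; edgeR adjusted p = 2e-09) at 3 h, or 0.24 on the log2(TPM+1) scale, and -0.94 (SE 0.045; adjusted p = 4.1e-15) at 0 h. Tnfsf10 rose with stimulation by 2.74 (SE 0.044) in Foxp3-guide cells and by 1.37 (SE 0.043) in control-guide cells, a difference of 1.37 (SE 0.061; adjusted p = 5.1e-15).

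**Figure D5:**
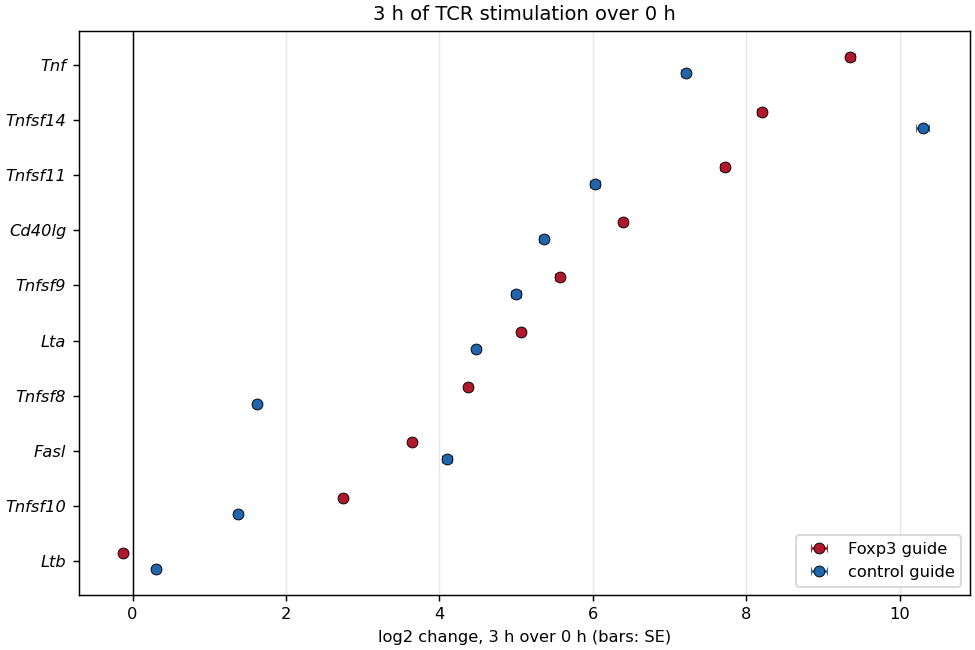
Log2 change of each ligand over 3 h of TCR stimulation with the Foxp3 guide (red) and the control guide (blue); bars are SE, and genes are ordered by the effect with the Foxp3 guide. Tnfsf14, Fasl and Ltb lie lower with the Foxp3 guide, and the other 7 lie higher.

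The transcripts also differ in elements that bind proteins controlling mRNA decay. In the longest annotated 3′ UTR of each gene (GENCODE M21), the AU-rich heptamer TATTTAT occurred 8 times in Tnf, 3 times in each of Lta, Tnfsf8 and Tnfsf10, 2 times in Tnfsf9 and Cd40lg, and 1 time in Tnfsf11, Tnfsf14 and Fasl. Ltb had 0. Among 12856 tested genes with an annotated 3′ UTR, 29.8% had at least 1 copy and 0.117% had as many as Tnf. The stretch of Tnf richest in the pentamer ATTTA, of which it holds 5, is shown with those pentamers in capitals.
Tnf 3′ UTR (GRCm38, chr17:35199679-35199708, minus strand): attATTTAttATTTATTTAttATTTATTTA
Of 11 regulators that bind such or stem-loop elements, 6 were higher and 4 lower with the Foxp3 guide at 3 h, and 4 were higher and 7 lower at 0 h. The share of all genes called was 61.5% at 3 h and 63.3% at 0 h. Zfp36, which encodes tristetraprolin, a decay factor for Tnf mRNA, changed by -1.72 (SE 0.043) at 3 h, and Zc3h12d by -1.32 (SE 0.038). At 0 h Zc3h12d changed by -1.06 (SE 0.038) and Zfp36l1 by -0.91 (SE 0.04). TCR stimulation raised 7 and lowered 3 with the Foxp3 guide, where 85.4% of all genes were called. It raised 8 and lowered 2 with the control guide, where 81.8% of all genes were called. Zfp36l1 rose by 3.25 (SE 0.043) and 2.24 (SE 0.041) and Zfp36l2 changed by -2.78 (SE 0.04) and -2.32 (SE 0.041) with the Foxp3 and the control guide, in that order. The TCR effect with the Foxp3 guide minus that with the control guide was -1.30 (SE 0.06) for Zfp36 and 1.0 (SE 0.056) for Zfp36l1. For that difference 3 regulators were called in each direction, where 17.8% of all genes were called positive and 27% negative. Whether these regulators acted on the ligands was not tested.

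Of 13 receptors of the 10 ligands tested, 11 were lower and 1 higher in Foxp3-guide cells at 3 h, where 30.8% of all genes were called lower. At 0 h 7 were lower and 4 higher, where 29.1% of all genes were called lower and 34.2% higher. The receptors had median log2 guide effects of -0.94 at 3 h and -0.58 at 0 h. Tnfrsf8, which encodes CD30, the receptor of the Tnfsf8 ligand, changed by -2.57 (SE 0.09) at 3 h, opposite to its ligand. Tnfrsf11a, which encodes RANK, the receptor of the Tnfsf11 ligand, changed by -3.92 (SE 0.31) at 3 h on 16 against 163 counts, and by -3.03 (SE 0.29) at 0 h on 26 against 144 counts. Tnfrsf9 changed by -2.99 (SE 0.05) at 0 h. Stimulation raised 7 receptors with either guide and lowered 5 in Foxp3-guide cells and 3 in control-guide cells. The shares of all genes called there were 85.4% and 81.8%, in that order of guides. Tnfrsf9 rose by 5.82 (SE 0.053) with the Foxp3 guide, and Tnfrsf8 by 3.96 (SE 0.11) with the control guide. Tnfrsf11b, the decoy receptor osteoprotegerin, was 9.26-fold higher at 3 h with the Foxp3 guide when set against a floor of 3 counts over the group. It had 26 against 0 counts there, and the 95% counting interval of the ratio began at 7.01. With the control guide it had 36 against 1 counts, a ratio of 38.6 (95% counting interval 6.5 to 1570). The TCR effect with the Foxp3 guide minus that with the control guide was -2.35 (SE 0.75) for Ltbr, on 8 to 48 counts a group, and 2.05 (SE 0.064) for Tnfrsf9. Of the receptors 1 had a positive and 7 a negative difference, where 17.8% of all genes were called positive and 27% negative. Ltbr, the lymphotoxin beta receptor, was close to undetected, with at most 0.46 TPM in a group mean.

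Of 8 other ligands of the superfamily, 4 passed the filter. Tnfsf4, which encodes OX40 ligand, was higher with the Foxp3 guide by 0.98 (SE 0.051) at 3 h and 1.24 (SE 0.054) at 0 h. Tnfsf13b, which encodes BAFF, was higher by 1.06 (SE 0.23) at 3 h and 0.83 (SE 0.16) at 0 h. Both genes were also the only 2 of the 4 called at 0 h, where 63.3% of all genes were called. At 3 h 2 were higher and 2 lower, with Tnfsf15 at -1.18 (SE 0.32) on 44 against 67 counts, where 61.5% of all genes were called. Cd70, which lies between Tnfsf9 and Tnfsf14, had 2018 counts in Foxp3-guide cells at 3 h, against 2 at 0 h, a ratio of 1080 (95% counting interval 298 to 8900). With the control guide it had 1634 counts at 3 h, against 7 at 0 h, a ratio of 250 (121 to 624). These counts are not scaled for library size. In the scaled edgeR fit Cd70 was called lower with the Foxp3 guide at 3 h (log2 change -0.27, SE 0.088). The difference between the TCR effects of Cd70, 1.95 (SE 1; edgeR adjusted p = 0.13), did not pass. Stimulation raised 3 and lowered 1 of the 4 with either guide, where 85.4% (Foxp3 guide) and 81.8% (control guide) of all genes were called. Tnfsf15 rose by 1.45 (SE 0.42) in Foxp3-guide cells and by 2.45 (SE 0.41) in control-guide cells. Of the 4, the difference between TCR effects was called for Tnfsf4, at -0.27 (SE 0.075), where 44.8% of all genes were called.

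Proteins that release or process the ligands were tested as a list of 7 genes. With the Foxp3 guide 4 were higher and 2 lower at 3 h, where 61.5% of all genes were called. At 0 h 2 were higher and 3 lower, where 63.3% of all genes were called. Adam10, a membrane protease that cleaves Fas ligand and other membrane proteins, had a guide effect of 1.36 (SE 0.041) and Rhbdf2, a partner of the TNF convertase ADAM17, of 1.12 (SE 0.041) at 3 h. Rhbdf1 and the proprotein convertase gene Furin changed by -0.91 (SE 0.22) and -0.45 (SE 0.046) at 0 h. Stimulation raised 6 and lowered 1 with the Foxp3 guide and raised 5 with the control guide. The shares of all genes called there were 85.4% and 81.8%. Furin led at 3.95 (SE 0.05) and 2.94 (SE 0.048), then Rhbdf1 at 2.56 (SE 0.17) and 2.22 (SE 0.16), in that order of guides. The TCR effect was larger with the Foxp3 guide by 1.32 (SE 0.058) for Adam10 and by 1.0 (SE 0.064) for Furin.

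Adaptors and death-signalling genes carry the signal inside the receiving cell. Of 16 tested, 2 were higher and 9 lower with the Foxp3 guide at 3 h, and 4 were higher and 10 lower at 0 h, with medians of -0.22 and -0.23. Across all genes 61.5% were called at 3 h (30.7% higher, 30.8% lower) and 63.3% at 0 h (34.2% higher, 29.1% lower). Birc2, an inhibitor of apoptosis protein, changed by -0.99 (SE 0.041) and Traf1 by -0.77 (SE 0.04) at 3 h. At 0 h Traf3 changed by -0.69 (SE 0.041) and Tank by -0.61 (SE 0.043). Stimulation raised 9 and lowered 5 with the Foxp3 guide, led by Cflar (the caspase-8 inhibitor FLIP) at 2.61 (SE 0.042) and Tank at 2.22 (SE 0.042). With the control guide it raised 10 and lowered 4, led by Cflar at 2.42 (SE 0.042) and Traf1 at 2.05 (SE 0.042). Across all genes 85.4% (Foxp3 guide) and 81.8% (control guide) were called for the TCR effect. The TCR effects differed by -0.83 (SE 0.098) for Fadd and 0.79 (SE 0.057) for Traf3.

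The genes whose profiles over the 8 libraries lay nearest to each ligand were found among 8759 other genes with a mean log2 CPM (counts scaled to library size) of at least 3. Distance is the root-mean-square gap between centred log2 CPM profiles, and all points share the same 4 groups, so it describes these libraries only. Nearest to Tnf was Hbegf, at 0.28, then Egr3 at 0.51 and Fam83g at 0.52. Lta lay within 0.10 of Rrp9, Smyd5 and Pwp2, and Ltb within 0.09 of Mif4gd, Ggt7 and Eci1. Tnfsf8 was nearest to Serpinb6b (0.20), Mpzl3 (0.46) and Jaml (0.53), and Tnfsf9 to Grwd1 (0.14), Irf4 (0.16) and Nfkbid (0.17). Tnfsf10 lay near Fasn (0.12), Rasa2 (0.13) and Fastkd1 (0.17), while Tnfsf11 lay near Plek (0.39), Lif (0.40) and Srxn1 (0.43). For Tnfsf14 even the nearest genes were far, with Bcat1 at 0.83, Ifng at 1.08 and Egr3 at 1.23. Cd40lg was nearest to Serpina3f (0.47), Bcl2a1d (0.53) and Zbtb32 (0.56), and Fasl to Acsl6 (0.20), Gfi1 (0.27) and Dusp6 (0.32). Within the family the closest pairs were Lta with Tnfsf9 (0.32), Tnf with Tnfsf11 (0.76) and Cd40lg with Tnfsf11 (0.77). Ltb had no ligand nearer than Tnfsf10, at 1.11.

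Markers of other cells that make these ligands were low. In the order Foxp3 guide 3 h, control guide 3 h, Foxp3 guide 0 h and control guide 0 h, the 6 myeloid markers summed to at most 4.59, 1.51, 2.56 and 2.43 CPM. The 5 NK markers summed to at most 4.8, 9.46, 4.3 and 2.46 CPM, with Klra8 at 0 counts in all 4 groups and Ncr1 at 0 in 3. The 6 B cell markers summed to at most 5.49, 8.44, 5.19 and 5.43 CPM, and the 2 CD8 markers to at most 8.71, 6.42, 7.8 and 7.69 CPM. At 3 h the ligands stood above these sums, with the lowest mean in Foxp3-guide cells at 147 CPM (Fasl) and in control-guide cells at 54 CPM (Fasl). At 0 h several ligands were at levels like the marker sums. Tnfsf14 averaged 3.66 CPM in Foxp3-guide cells and 0.471 CPM in control-guide cells at 0 h, Fasl 11.9 and 3.15 CPM, and Cd40lg 6.95 and 3.08 CPM, in the same order of guides. With the Foxp3 guide at 3 h, 2 of 3 tested myeloid markers were higher and 1 lower, and both CD8 markers were higher. Of 3 tested NK markers 1 was higher and 1 lower, and of 3 tested B cell markers 0 were higher and 1 lower. At 0 h all 3 tested NK markers were higher, including Klrb1c on 147 against 3 counts. There 1 myeloid marker was higher and 0 lower, 1 B cell marker was higher and 1 lower, and neither CD8 marker passed. Of 3 tested stromal markers 2 were higher and 1 lower at 3 h, and 0 were higher and 2 lower at 0 h. Across all genes 61.5% were called at 3 h and 63.3% at 0 h. The part of these markers in the results was not tested. The 4 stromal markers summed to at most 42.1, 30.7, 131 and 212 CPM, nearly all of it Pecam1, which T cells also express, while Col1a1 had at most 56 counts in a group.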

How the data were processed

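RNA from 8 libraries of cultured mouse nTreg cells was analysed. Per the submitters' processing notes, reads were handled with Trim Galore 0.6.3, STAR 2.7.9a and RSEM 1.3.1 on mm10 (GRCm38); the annotation release is not given in the sources used here. The authors deposited RSEM expected counts, and these were rounded before fitting. The authors also deposited TPM values, used for levels and as an alternative scale. All 10 members matched GENCODE M21 with their version, and 0 sample columns were left unused. After edgeR's default expression filter and TMM scaling, 1 quasi-likelihood model (edgeR 4.0.16, R 4.3.3) with a mean per group was fitted to 16642 genes over all 8 libraries, with 4 residual degrees of freedom and a common biological coefficient of variation of 3.41%. P-values were adjusted by Benjamini-Hochberg over all genes tested in a comparison. The 2 libraries of a group differed by a chi-square of 4.25 to 6.81 per gene, above sampling noise. Counting intervals cover counting error only. RSEM shares ambiguous reads between genes, which can affect similar genes. Alternatives were RLE and upper-quartile scaling, other filters, a replicate block, single comparisons, each library left out, limma 3.58.1, DESeq2 1.42.0, both TPM scales and a fold minimum of 2. The fitting script was tested on simulated data. All 10 members were named, with the 2 called genes of largest absolute log2 change per list and comparison. Members and lists were chosen with earlier results of these data known.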

Additional observations from a re-analysis of the deposited data

Results flagged for a closer look

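For all 10 ligands the change over 3 h of stimulation differed between the guides by the interaction test of edgeR's quasi-likelihood model (Benjamini-Hochberg adjusted). The log2 TCR effect with the Foxp3 guide minus that with the control guide was 2.75 for Tnfsf8 (adjusted p = 5.3e-20), 2.16 for Tnf (1e-14), 1.69 for Tnfsf11 (4.2e-13), 1.37 for Tnfsf10 (5.1e-15) and 1.04 for Cd40lg (5.2e-09). It was 0.58 for Lta (5.8e-07) and 0.57 for Tnfsf9 (9.1e-05). It was negative for Tnfsf14 (-2.12; 2.9e-10), Fasl (-0.46; 2.9e-04) and Ltb (-0.44; 9.4e-07). Tnfsf14 and Fasl rose with both guides. Across all genes tested, 44.8% had such a difference.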

How the results depend on the processing

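Over 885 refits of single ligands under the alternatives, 864 kept direction and call, 9 lost the call, 5 gained one and 7 turned sign. The sign turned for Tnfsf8 at 0 h (-0.01 under upper-quartile scaling, -0.19 on both TPM scales), for Lta at 3 h (-0.12 on both TPM scales) and for Ltb with the control guide over time (-0.06 on both TPM scales). With no filter Tnfsf8 at 0 h passed (0.11; edgeR adjusted p = 0.046), and Lta at 3 h passed without control guide 3 h replicate 2 (0.13; adjusted p = 0.016) or Foxp3 guide 3 h replicate 1 (adjusted p = 0.022). Tnfsf14 was removed by the filter of at least 1 CPM in all libraries and gave no value there. Asking for at least a 2-fold change left 4 ligands at 0 h and 6 for the difference between TCR effects. At 3 h it removed the calls of Tnfsf9 (log2 0.43), Tnfsf10 (0.43) and Tnfsf14 (0.84). It also removed both TCR calls of Ltb, at -0.13 (Foxp3 guide) and 0.31 (control guide). Over all genes it left 2586 (guide, 0 h), 2760 (guide, 3 h), 8484 (TCR, Foxp3 guide), 7662 (TCR, control guide) and 1557 (difference), against 10539, 10231, 14208, 13620 and 7457. Leaving out 1 library gave 7 to 8 called ligands at 0 h, 9 to 10 at 3 h, 9 to 10 for the TCR effect with the Foxp3 guide, and 10 for the other comparisons. The replicate block called 8 ligands at 0 h, 9 at 3 h and 10 in each other comparison, the same numbers as without it. Same-numbered libraries deviated together with correlations of -0.08 to 0.01, so the numbers were not taken to pair them. The causes of these shifts were not tested. With 2 libraries a group, depth limits chiefly Tnfsf14 at 0 h.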
